A study of Mus musculus with 9 samples.

Results

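In the expression table of cultured mouse BM macrophages, 75 of 13526 genes were expressed with or without RANKL and were low when rmCst6 was given together with RANKL. These genes were selected on their measured group means. The log2 mean with RANKL had to be at least 7, the RANKL and control means had to lie within 2-fold of each other, and the RANKL plus rmCst6 mean had to lie at least 4-fold below both. A total of 83 genes passed these values, and 8 of them were left out by symbol. H2-Aa, H2-Ab1, H2-Eb1, Il13ra1, Tnfaip2 and Trim16 were dropped for how their symbols begin (H2-, Il, Tnf or Trim), whatever their function. Ciita and Cd74 were dropped by name. Of the 7775 genes with such a level and such a likeness between RANKL and control, 1.07% lay 4-fold or more below both groups and 1.54%, or 120 genes, lay 4-fold or more above both. All 3 contrasts were used in the choice, so the values of the 75 genes are given as a description and no p-value is attached to them.

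All cells were BM macrophages of C57BL/6 mice aged 8 weeks that had first been grown for 3 days with M-CSF at 10 ng/ml, in α-MEM with 10% FBS. The control group was given no RANKL. The RANKL group was given RANKL for 48 hours, a step for which the paper's RNA-Seq method also names M-CSF. That method does not say whether the control cells were kept with M-CSF in that time. The part of M-CSF in the comparisons with control was therefore not tested. The RANKL plus rmCst6 group was given RANKL and rmCst6 for 48 hours, and each group had 3 libraries. The time the control cells were kept, the doses of both proteins in these cultures and the origin of the replicates (separate mice or separate dishes) are not given in the sources used here, so time in culture and RANKL cannot be told apart in the comparison with control, and p-values speak only of the scatter among these libraries. The values are deposited log2 normalized expression. A fold is 2 to the power of a difference of log2 values, and for genes with low values it comes out too small.

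M-CSF keeps BM macrophages alive, and RANKL binds its receptor RANK on them and starts the program that turns them into osteoclasts, the multinucleated cells that resorb bone. Cst6, cystatin E/M, is a secreted inhibitor of cysteine proteases such as legumain and certain cathepsins. During this differentiation many macrophage genes are switched off and osteoclast genes on, and the genes described here were near the same level with and without RANKL.

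Markers of several cell types were set beside the labels of the cultures. The sum of 13 macrophage markers on the linear scale was 1.14e+06 to 1.33e+06 in the control libraries, 4.93e+05 to 5.44e+05 with RANKL and 7.45e+05 to 7.95e+05 with RANKL plus rmCst6. Lyz2 had the highest level of the 13 in each group. With rmCst6, 2 of the 13 were called lower and 7 higher than with RANKL, and 7 lower and 5 higher than in control (limma). Against control, Csf1r, Mrc1 and Cd14 differed by -2.8, -4.1 and -2.1, and Fcgr1 and C1qa by 3.3 and 1.1. The sum of 11 osteoclast markers was 6640 to 6889 in control, 5.16e+05 to 6.70e+05 with RANKL and 1.71e+04 to 1.95e+04 with RANKL plus rmCst6. The sum of 12 neutrophil markers was 1.76e+04 to 2.43e+04 in control, 6007 to 9960 with RANKL and 4.81e+04 to 5.61e+04 with RANKL plus rmCst6, and 11 of the 12 were higher with rmCst6 than with RANKL (limma, adjusted p under 0.05). Ltf, which encodes lactoferrin of neutrophil granules, had a log2 mean of 11.39 in control, 10.03 with RANKL and 12.72 with rmCst6. The sum of 7 dendritic cell markers was 683 to 718 in control, 1525 to 1666 with RANKL and 225 to 249 with rmCst6, and 3 of the 6 tested were called lower and 1 higher with rmCst6 than with RANKL. Log2 means in control, RANKL and rmCst6 were 8.90, 10.45 and 6.15 for Itgax (CD11c), 4.12, 6.56 and 4.60 for Zbtb46 and 5.56, 2.14 and 0.53 for Cd209a. They were 7.07, 6.49 and 6.83 for Xcr1, 3.38, 4.17 and 3.74 for Flt3, 3.13, 3.26 and 3.09 for Clec9a and 3.21, 1.93 and 3.07 for Siglech. The sum of 5 megakaryocyte markers was 8153 to 8953 in control, 680 to 973 with RANKL and 6379 to 8726 with rmCst6, so that RANKL was the low group. Pf4 made up most of this sum, with log2 means of 13.03, 9.48 and 12.81 in control, RANKL and rmCst6. The sum of the 3 endothelial markers in the table was 128 to 203 in control, 332 to 363 with RANKL and 3281 to 3795 with rmCst6. Kdr made up most of the sum with rmCst6, with log2 means of 5.3, 8.36 and 11.69 in control, RANKL and rmCst6. Pecam1 had means of 6.68, 4.17 and 6.12 and Cdh5 of 3.85, 2.84 and 6.33, in the same order. The B cell sum was 3715 to 4306 in control, 115 to 134 with RANKL and 184 to 221 with rmCst6, and Ighm, the heavy chain of IgM, had log2 means of 11.90, 6.36 and 6.96. The stromal sum was 4947 to 8124 in control, 2489 to 3042 with RANKL and 2840 to 4972 with rmCst6. The T and NK cell sum was 144 to 165 in control, 277 to 405 with RANKL and 213 to 281 with rmCst6. The mast cell sum was 32.2 to 89.1, 53.0 to 108.3 and 119 to 135, and the erythroid sum 40.1 to 56.5, 2.72 to 7.31 and 9.30 to 15.1, in the same order. None of the 75 genes stood on any of the 11 marker lists. The part of the neutrophil, dendritic cell and other markers in the low values of the 75 genes was not tested, and in bulk samples fewer cells of a type and less RNA per cell cannot be told apart. Across genes, libraries of the same group correlated at 0.989 to 0.991 and libraries of different groups at 0.859 to 0.903, and no library stood apart from its group.

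With RANKL plus rmCst6, the 75 genes lay 5.06 to 2.01 log2 units below RANKL, that is, their differences ran from -5.06 to -2.01 with a median of -2.64, or 6.24-fold lower. Against control the differences ran from -5.30 to -2.01 with a median of -2.67. The median over all genes tested was -0.02 against RANKL and 0.01 against control. By limma, a linear model with moderated variances (adjusted p under 0.05, two-sided), 75 of the 75 genes were called lower in both comparisons, where 38.0% of all 12932 genes tested were called lower and 34.8% higher against RANKL, and 35.1% lower and 36.7% higher against control. For each of the 75, the 3 libraries with rmCst6 lay below the 6 others, as they did for 22.2% of all genes tested. The rule fixed these counts, and nothing is read from them. Over all genes, whether lower or higher calls were the more frequent changed with the scaling of the libraries. The distance between the highest rmCst6 library and the lowest of the 6 others was the least for Cpne8, at 1.02, and the greatest for Ephx1, at 3.96, with a median of 2.15.

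**Figure D1:**
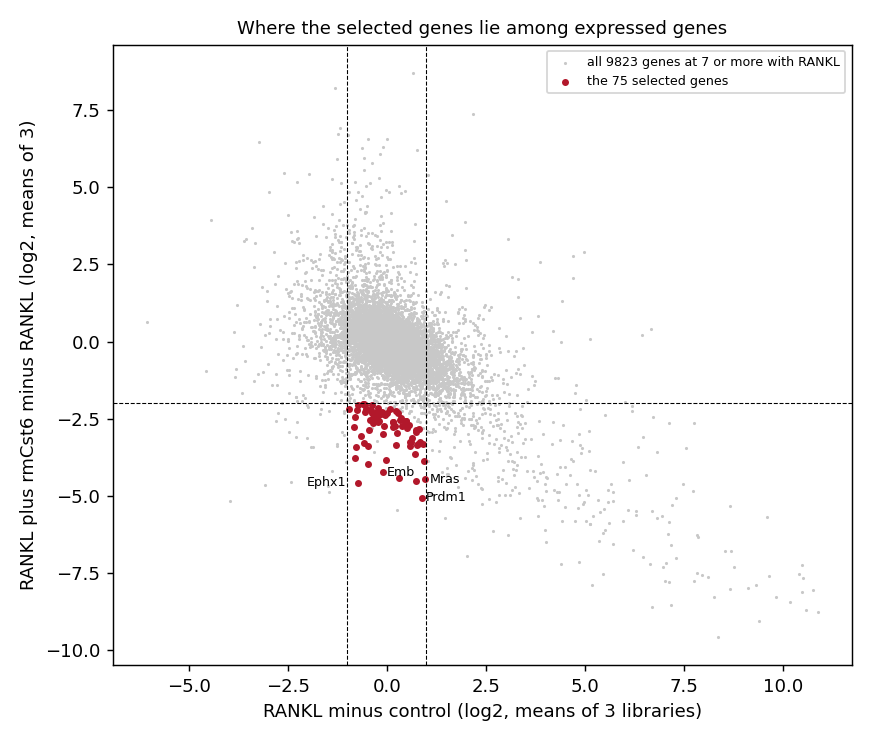
Each point is a gene with a log2 mean of at least 7 with RANKL (9823 genes, gray), placed by RANKL minus control (horizontal axis) and by RANKL plus rmCst6 minus RANKL (vertical axis), both log2 differences of means of 3 libraries; dashed lines mark the limits of the rule and the 75 selected genes are red. The selected genes fill the band within 1 log2 unit of control, below -2 on the vertical axis, and reach -5.06 (Prdm1).

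The rule left room for RANKL itself to move these genes by less than 2-fold. RANKL minus control ran from -0.97 (Tmem132a) to 0.98 (Mras) with a median of -0.06. It was above 0 for 34 genes and below 0 for 41, and 21 genes lay within 0.25 of control. limma called 24 of the 75 lower and 23 higher with RANKL than in control, where 35.9% of all genes tested were called lower and 36.6% higher, and 28 were not called. Near the control level here means within 2-fold, as the rule required, and does not mean that no difference was found. The rule used this contrast too, so nothing about the 75 genes is read from these calls.

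Most of the falls were close to the limit. The smaller of the 2 falls was under 2.5 log2 units for 43 genes, at least 3 (8-fold) for 14 and at least 4 (16-fold) for 4, namely Ephx1, Emb, Prdm1 and Rhbdf1. The transcripts remained measurable: the log2 mean with rmCst6 ran from 3.58 (Rhbdf1) to 11.63 (Glul), with a median of 6.94, and no gene was listed at 0 in any library. The spread between replicates was wider with rmCst6, with a median SD of 0.22, than with RANKL (0.10) or in control (0.09). The median SD over all genes tested was 0.10, 0.11 and 0.09 in the rmCst6, RANKL and control groups. RANKL plus rmCst6 replicate 3 was the lowest of its group for 39 of the 75 genes (52%), against 33.1% of all genes tested, and replicate 1 was the lowest for 12 (16%), against 34%. The 75 genes have their lowest levels in these libraries, and the part of low level in the wider spread was not tested.

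**Figure D2:**
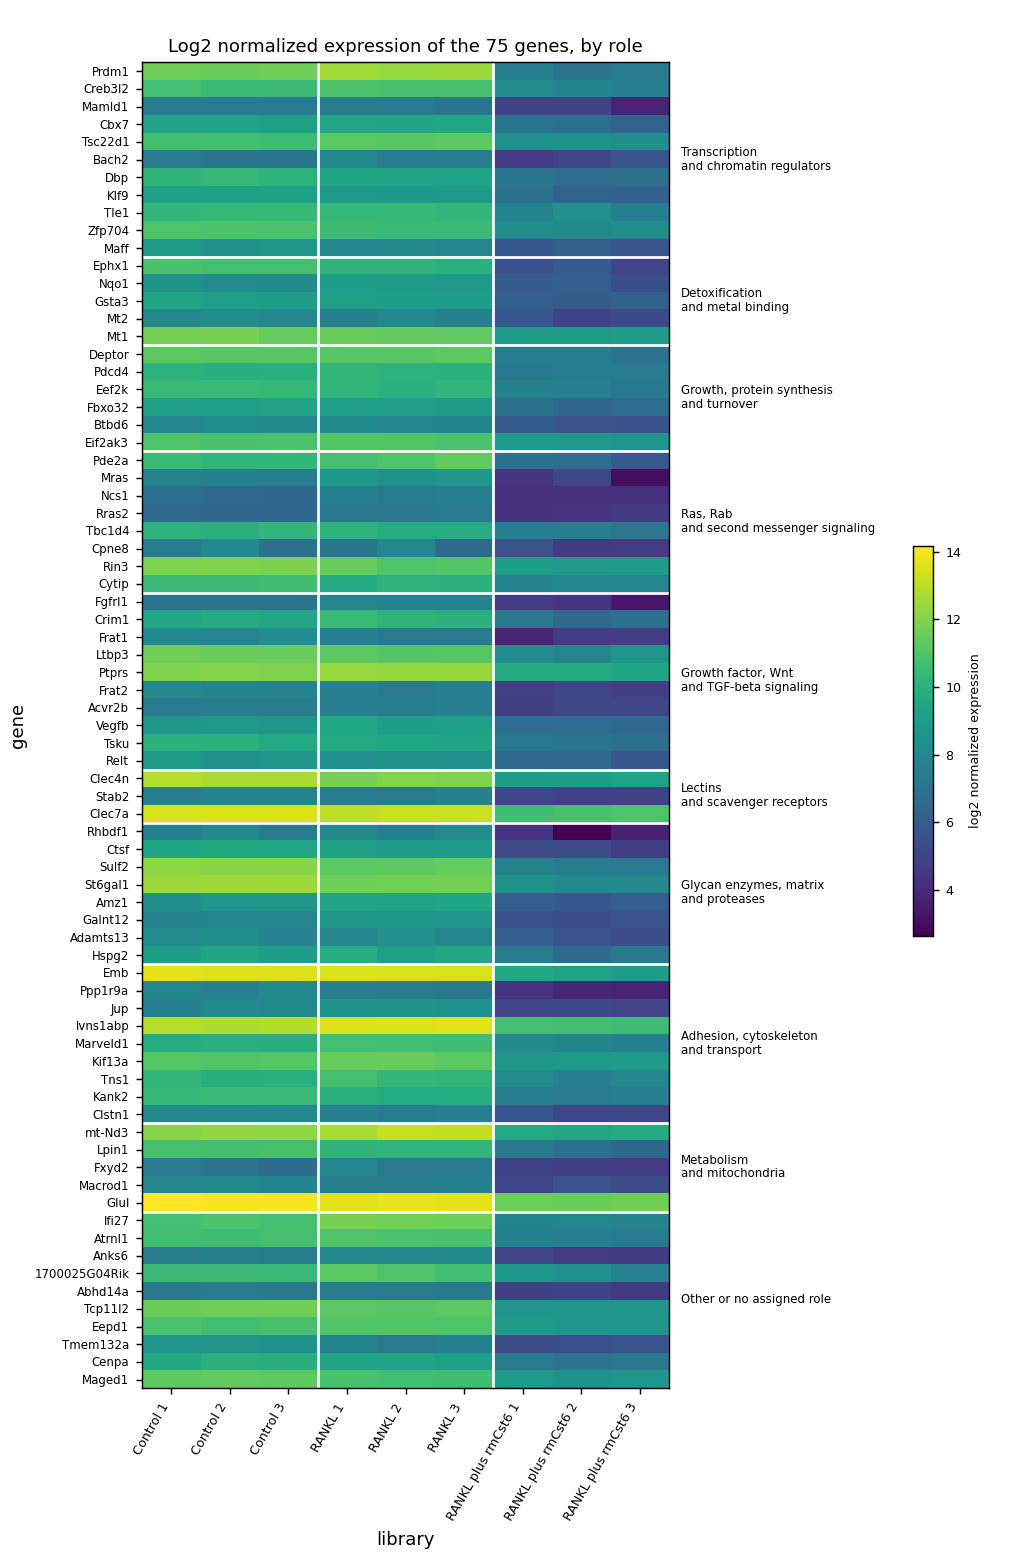
Log2 normalized expression of the 75 selected genes (rows, grouped by role) in the 9 libraries (columns), with color from dark (low) to yellow (high). The 3 right columns, RANKL plus rmCst6, are darker than the other 6 in each row, while the control and RANKL columns of a row differ little.

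The plot of the 12 genes with the largest smaller fall shows the individual libraries. Ephx1, microsomal epoxide hydrolase, which opens reactive epoxides of drugs and lipids, was at 10.85, 10.77 and 10.76 in control, at 10.13, 10.15 and 9.95 with RANKL and at 5.43, 5.98 and 5.06 with RANKL plus rmCst6. Its level with rmCst6 was 4.18% of that with RANKL and 2.54% of that in control, the deepest fall below control among the 75. Emb, embigin, a glycoprotein of the cell surface that accompanies monocarboxylate transporters, was at 13.68, 13.57 and 13.55 in control, at 13.53, 13.49 and 13.47 with RANKL and at 9.52, 9.30 and 8.97 with RANKL plus rmCst6. The control and RANKL libraries of Emb lay side by side, and the rmCst6 libraries were far below. Emb was one of the 10 selected genes with the highest RANKL mean, not corrected for length, and its level with rmCst6 was 5.30% of that with RANKL.

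**Figure D3:**
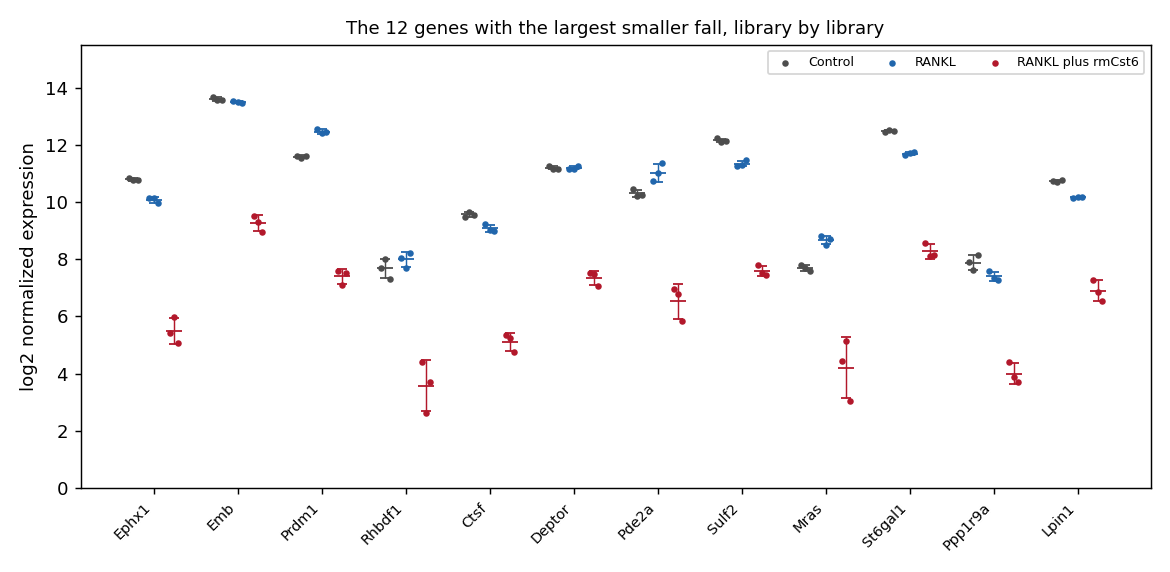
Log2 normalized expression (vertical axis) of the 12 genes with the largest smaller fall. Points are single libraries of control (gray), RANKL (blue) and RANKL plus rmCst6 (red), and bars are the mean and SD of 3 libraries; the red points of each gene lie below all gray and blue points, and for Ephx1 the nearest are 3.96 apart.

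Regulators of transcription and chromatin made up 11 of the 75 genes. Prdm1 encodes Blimp-1, a zinc finger repressor that silences inhibitors of osteoclast formation and drives plasma cell differentiation. It was at 11.61, 11.52 and 11.62 in control, at 12.56, 12.40 and 12.43 with RANKL and at 7.60, 7.09 and 7.51 with RANKL plus rmCst6. The RANKL libraries of Prdm1 were all above the control libraries, by 0.88 on average, and the fall from RANKL, -5.06 or 33.4-fold, was the deepest of all 75 genes. Bach2, a repressor known for holding back differentiation in B and T cells, was at 7.42, 7.09 and 7.12 in control, at 8.01, 7.51 and 7.53 with RANKL and at 4.68, 5.03 and 5.66 with RANKL plus rmCst6. Maff, a small Maf protein that pairs with Bach or Nrf2 proteins on DNA, was at 8.85, 8.51 and 8.72 in control, at 7.96, 8.05 and 7.87 with RANKL and at 5.80, 6.20 and 5.73 with RANKL plus rmCst6. Bach2 and Maff were thus low in the same libraries although they stood on opposite sides of control with RANKL.

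The other transcription regulators covered several classes. Klf9, a Krüppel-like factor induced by glucocorticoids, was at 9.26, 9.15 and 9.22 in control, at 8.89, 8.80 and 8.93 with RANKL and at 6.93, 6.33 and 6.17 with rmCst6. Dbp, a PAR bZIP factor driven by the circadian clock, differed by -2.44 from RANKL and by -3.23 from control. Creb3l2, a membrane-bound factor released by stress of the ER and Golgi, differed by -2.96 and -2.70. Mamld1, related to the Mastermind coactivators of Notch, differed by -2.74 and -2.80, and RANKL plus rmCst6 replicate 3, at 3.73, lay below the other rmCst6 libraries, at 4.99 and 5.02. Tle1, a Groucho corepressor, was at 10.23, 10.33 and 10.36 in control, at 10.33, 10.37 and 10.22 with RANKL and at 7.85, 8.49 and 7.62 with rmCst6, so that control and RANKL had the same mean, 10.31. Cbx7, a subunit of Polycomb repressive complexes that reads histone methylation, differed by -2.73 from RANKL and -2.51 from control. Tsc22d1, a leucine zipper protein responsive to TGF-β, differed by -2.71 and -2.15, and Zfp704, a zinc finger protein, by -2.22 and -2.65.

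Enzymes of detoxification and metal-binding proteins made up 5 genes, Ephx1 among them. Nqo1, a quinone reductase and a common readout of the Nrf2 pathway, was at 8.61, 8.18 and 8.17 in control, at 9.10, 8.97 and 8.84 with RANKL and at 5.98, 6.15 and 5.39 with RANKL plus rmCst6. Gsta3, a glutathione S-transferase of the alpha class, was at 9.45, 9.14 and 9.06 in control, at 9.18, 9.11 and 9.05 with RANKL and at 6.10, 6.02 and 6.22 with RANKL plus rmCst6. The RANKL libraries of Nqo1 were above the control libraries and those of Gsta3 overlapped them, and the level with rmCst6 was 11.4% of that with RANKL for Nqo1 and 12.5% for Gsta3. Mt1 and Mt2 encode metallothioneins, small cysteine-rich proteins that bind zinc and copper and are induced by metals through the factor MTF-1. Mt1 was at 11.74, 11.81 and 11.45 in control, at 11.49, 11.39 and 11.36 with RANKL and at 8.98, 8.84 and 9.07 with RANKL plus rmCst6. Mt2 was at 8.03, 8.23 and 7.98 in control, at 7.66, 8.04 and 7.71 with RANKL and at 5.79, 4.96 and 5.21 with RANKL plus rmCst6. The differences of the pair were nearly the same, -2.46 and -2.49 from RANKL and -2.70 and -2.76 from control.

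Mt1 and Mt2 are neighbors on chromosome 8 with 5514 bases and no other gene of the table between them. The 250 bases before each start are printed because the pair moved together and because metals act on these genes through a short element, whose core TGCNCNC (N for any base) is in capitals on whichever strand it reads. The sequences are those of RefSeq on GRCm38.p6, 5′ to 3′ on the gene's strand, which is the plus strand for both, at chr8:94178839-94179088 for Mt1 and chr8:94172368-94172617 for Mt2.
Mt1: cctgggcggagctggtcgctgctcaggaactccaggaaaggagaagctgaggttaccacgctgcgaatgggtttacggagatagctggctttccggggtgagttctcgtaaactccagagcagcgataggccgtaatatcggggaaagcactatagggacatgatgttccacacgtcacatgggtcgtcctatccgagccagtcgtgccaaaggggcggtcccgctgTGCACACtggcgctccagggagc
Mt2: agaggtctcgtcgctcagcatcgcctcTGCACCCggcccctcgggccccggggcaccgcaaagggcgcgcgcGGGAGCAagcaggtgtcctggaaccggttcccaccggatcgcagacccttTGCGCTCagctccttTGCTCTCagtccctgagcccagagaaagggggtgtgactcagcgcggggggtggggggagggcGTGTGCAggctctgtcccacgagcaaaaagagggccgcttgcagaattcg
In the printed bases, the core occurred 1 time before Mt1 and 5 times before Mt2. These counts hang on the RefSeq starts. GENCODE M21 begins Mt1 at 94179082 and Mt2 at 94172664, and copies beyond the printed bases are not in the counts. The counts are therefore not the number of metal elements of either gene. It is short: within 300-base windows around the start it was found for 41 of 64 selected genes (64.1%) and for 58.5% of all 10278 genes tested that had a window, so its presence sets neither gene apart.

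Growth control and protein synthesis and turnover were represented by 6 genes. Deptor, which binds and inhibits the kinase mTOR, was at 11.26, 11.17 and 11.17 in control, at 11.16, 11.16 and 11.25 with RANKL and at 7.51, 7.47 and 7.05 with RANKL plus rmCst6. It had the same level with and without RANKL, a difference of -0.01, and 14.4-fold less with rmCst6. Eef2k, the kinase that halts elongation by phosphorylating eEF2, differed by -2.62 from RANKL and -2.84 from control. Pdcd4, which blocks the helicase eIF4A, was at 10.07, 9.85 and 9.97 in control, at 10.21, 10.08 and 10.03 with RANKL and at 7.25, 7.47 and 7.35 with rmCst6. Eif2ak3 encodes PERK, the ER stress kinase of eIF2α, and was at 11, 10.88 and 10.91 in control, at 11.09, 11.04 and 10.91 with RANKL and at 8.96, 8.83 and 8.70 with rmCst6. The products of these 4 genes are each known to restrain growth or translation, and the 4 were chosen for mention after their values were seen. Fbxo32, the ubiquitin ligase atrogin-1 of wasting muscle, differed by -2.35 and -2.5, and Btbd6, a BTB adaptor of cullin ligases, by -2.27 and -2.39.

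Small GTPases, their regulators and second messenger proteins made up 8 genes. Mras, a relative of Ras that activates the SHOC2 phosphatase complex, was at 7.81, 7.69 and 7.58 in control, at 8.80, 8.50 and 8.72 with RANKL and at 4.43, 5.15 and 3.04 with RANKL plus rmCst6. The rmCst6 libraries of Mras ranged widely, with an SD of 1.07, the largest among the 75, yet the highest of them lay well under the lowest control. Rras2, also called TC21, was at 6.60, 6.47 and 6.48 in control, at 7.24, 7.20 and 7.35 with RANKL and at 4.28, 4.36 and 4.59 with rmCst6. Pde2a, a phosphodiesterase that cleaves cAMP when cGMP is bound, was at 10.45, 10.21 and 10.25 in control, at 10.72, 11.01 and 11.35 with RANKL and at 6.95, 6.78 and 5.84 with rmCst6, a 22.8-fold difference from RANKL. All 3 were above control with RANKL and below it with rmCst6. Rin3, an exchange factor for Rab5, differed by -2.23 from RANKL and -2.98 from control, and Tbc1d4, a GTPase activator of Rab proteins in glucose transporter traffic, by -2.38 and -2.61. Ncs1, a neuronal calcium sensor, differed by -3.30 and -2.40, and Cytip, which binds cytohesins at leukocyte contacts, by -2.01 and -2.57. Cpne8, a calcium-dependent phospholipid-binding copine, spread widely in each group: it was at 7.50, 8.01 and 6.93 in control, at 7.10, 7.98 and 6.62 with RANKL and at 5.60, 4.59 and 4.65 with rmCst6.

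Growth factors, Wnt and TGF-β proteins and related receptors made up 10 genes. Frat1 and Frat2 encode proteins that bind GSK-3 and can free β-catenin from it. Frat1 was at 8.17, 7.93 and 8.30 in control, at 7.70, 7.35 and 7.37 with RANKL and at 3.84, 4.66 and 4.76 with RANKL plus rmCst6. Frat2 was at 8.08, 7.82 and 7.81 in control, at 7.67, 7.41 and 7.62 with RANKL and at 4.89, 5.07 and 4.82 with RANKL plus rmCst6. Both genes were slightly lower with RANKL than in control and 8.31-fold and 6.24-fold lower with rmCst6 than with RANKL. They are neighbors on chromosome 19, on opposite strands and pointing at each other, with 13389 bases and no other gene of the table between them. The 250 bases before each start are printed because the pair shares promoter sequence. They stand at chr19:41829720-41829969, plus strand, for Frat1 and at chr19:41848133-41848382, minus strand, for Frat2 (RefSeq, GRCm38.p6, 5′ to 3′ on the gene's strand), with capitals for the longest runs in common.
Frat1: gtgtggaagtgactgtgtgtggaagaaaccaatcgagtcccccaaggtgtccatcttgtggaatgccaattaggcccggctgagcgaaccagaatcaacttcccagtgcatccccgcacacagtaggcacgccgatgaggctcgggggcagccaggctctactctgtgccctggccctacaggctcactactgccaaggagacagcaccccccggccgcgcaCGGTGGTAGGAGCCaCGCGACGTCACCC
Frat2: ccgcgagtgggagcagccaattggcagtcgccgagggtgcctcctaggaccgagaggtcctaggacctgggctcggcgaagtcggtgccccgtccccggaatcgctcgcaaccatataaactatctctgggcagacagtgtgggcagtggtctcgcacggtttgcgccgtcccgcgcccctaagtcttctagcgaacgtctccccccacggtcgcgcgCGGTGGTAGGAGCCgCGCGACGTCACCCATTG
A run of 14 bases is followed, after 1 differing base, by a run of 63 bases that continues past the start, of which 13 are printed for Frat1 and 17 for Frat2. The longer run holds TGTTTAC, the core bound by FoxO factors. Within the 300-base windows this core was found, on either strand, for 5 of 64 selected genes (7.81%: Prdm1, Frat1, Frat2, Klf9 and Adamts13) and for 2.55% of all genes tested, and Frat1 and Frat2 count once for each although they share the copy. A match of letters is a description and says nothing of binding.

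Ltbp3 holds latent TGF-β in the matrix, and it was at 11.69, 11.60 and 11.54 in control, at 11.27, 11.08 and 11.13 with RANKL and at 8.27, 7.89 and 8.69 with RANKL plus rmCst6. Acvr2b, a type II receptor of activins, differed by -2.60 from RANKL and -2.44 from control. Tsku, a secreted antagonist of several growth factor pathways, differed by -2.47 and -2.81, and Crim1, a membrane protein that binds BMPs, by -3.24 and -2.67. Vegfb, a ligand of VEGFR1, differed by -2.57 and -2.07, and Fgfrl1, an FGF receptor with no kinase domain, by -3.65 and -2.94. Ptprs, a receptor tyrosine phosphatase that binds heparan and chondroitin sulfate, was at 11.95, 12.05 and 11.95 in control, at 12.37, 12.36 and 12.35 with RANKL and at 9.69, 9.68 and 9.47 with rmCst6. Its RANKL libraries were nearly identical, and the mean difference with rmCst6 was -2.75. Relt, a receptor of the TNF receptor superfamily, differed by -2.16 and -2.37.

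Lectins and scavenger receptors made up 3 genes, all at or below control with RANKL. Clec7a encodes Dectin-1, the receptor for fungal β-glucan, and was at 13.47, 13.53 and 13.57 in control, at 13.03, 13.20 and 13.22 with RANKL and at 10.62, 10.83 and 11.01 with RANKL plus rmCst6. Clec4n encodes Dectin-2, which binds fungal mannan, and was at 12.87, 12.72 and 12.70 in control, at 11.82, 12.02 and 11.96 with RANKL and at 9.06, 9.12 and 9.31 with RANKL plus rmCst6. The groups of Clec4n formed a staircase, -0.83 from control to RANKL and -2.77 from RANKL to rmCst6. Clec7a is annotated as a polymorphic pseudogene in GENCODE M21, and the other 74 selected genes as protein coding. Stab2, an endocytic receptor for hyaluronan, was lower, at 7.55, 7.73 and 7.84 in control, at 7.45, 7.42 and 7.68 with RANKL and at 5.11, 4.89 and 4.87 with rmCst6.

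Enzymes of glycans, matrix proteins and proteases made up 8 genes, with median differences of -3.39 from RANKL and -3.35 from control. The rule used both differences, and the roles were set after the values were seen, so the roles are not ranked by them. Sulf2 removes 6-O-sulfates from heparan sulfate, and it was at 12.22, 12.11 and 12.13 in control, at 11.27, 11.30 and 11.46 with RANKL and at 7.79, 7.50 and 7.45 with RANKL plus rmCst6. St6gal1 adds α2,6-linked sialic acid to glycoproteins, and it was at 12.43, 12.53 and 12.48 in control, at 11.63, 11.70 and 11.73 with RANKL and at 8.57, 8.11 and 8.14 with RANKL plus rmCst6. RANKL minus control was -0.81 for Sulf2 and -0.79 for St6gal1, and with rmCst6 they were 13.6-fold and 10.7-fold lower than with RANKL. Rhbdf1 encodes iRhom1, a catalytically dead rhomboid that escorts the sheddase ADAM17, and was at 7.70, 8.00 and 7.32 in control, at 8.05, 7.71 and 8.21 with RANKL and at 4.39, 2.64 and 3.70 with rmCst6. Ctsf, cathepsin F, a lysosomal cysteine protease, was at 9.47, 9.66 and 9.56 in control, at 9.21, 9.03 and 9.0 with RANKL and at 5.34, 5.25 and 4.75 with rmCst6. Cathepsin F is of the protease class that cystatins inhibit, and its transcript was 15.6-fold below RANKL. A link between that inhibition and the transcript level was not tested. Galnt12, which starts O-glycan chains, differed by -3.25 from RANKL and -2.41 from control, and Amz1, a putative metalloprotease, by -3.36 and -2.60. Hspg2, the heparan sulfate proteoglycan perlecan, was at 9.07, 9.42 and 9.09 in control, at 9.79, 9.15 and 9.50 with RANKL and at 7.54, 6.64 and 7.32 with rmCst6. Adamts13, the protease of von Willebrand factor, differed by -2.38 and -2.44.

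Adhesion, cytoskeleton and transport proteins made up 9 genes, Emb among them. Ppp1r9a, the actin-binding protein neurabin, was at 7.89, 7.62 and 8.14 in control, at 7.59, 7.34 and 7.26 with RANKL and at 4.41, 3.87 and 3.72 with RANKL plus rmCst6. Jup, plakoglobin of cell junctions, differed by -3.39 from RANKL and -2.80 from control. Ivns1abp, a kelch protein that protects actin filaments, was at 12.90, 12.77 and 12.85 in control, at 13.56, 13.58 and 13.60 with RANKL and at 10.71, 10.69 and 10.59 with rmCst6. The replicates of Ivns1abp were tight, and each group was clear of the other 2. Kif13a, a kinesin that moves endosomes, was at 11.12, 11.02 and 11.12 in control, at 11.47, 11.48 and 11.28 with RANKL and at 8.75, 8.89 and 8.98 with rmCst6. Tns1, tensin 1, which links integrins to actin, was at 10.23, 9.92 and 9.97 in control, at 10.75, 10.25 and 10.19 with RANKL and at 8.23, 7.59 and 7.98 with rmCst6. Kank2 of integrin adhesions, Clstn1, a kinesin cargo adaptor, and Marveld1 differed from RANKL by -2.29, -2.19 and -2.82.

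Metabolic and mitochondrial proteins made up 5 genes. Glul, glutamine synthetase, had the highest RANKL mean of the 75 before any correction for length and was at 14.17, 14.02 and 14 in control, at 13.63, 13.77 and 13.68 with RANKL and at 11.63, 11.58 and 11.69 with RANKL plus rmCst6. Lpin1, a phosphatidate phosphatase of triglyceride synthesis that also coactivates transcription, was at 10.75, 10.69 and 10.77 in control, at 10.15, 10.17 and 10.19 with RANKL and at 7.29, 6.85 and 6.55 with rmCst6. Both were a little lower with RANKL than in control. Fxyd2, a regulator of the sodium pump, differed by -2.80 from RANKL and -2.29 from control, and Macrod1, an ADP-ribose hydrolase of mitochondria, by -2.20 and -2.59. Of the other 10 genes, Ifi27, an interferon-induced mitochondrial protein, was at 10.71, 10.90 and 10.73 in control, at 11.79, 11.72 and 11.64 with RANKL and at 7.85, 7.94 and 7.76 with rmCst6. It had the highest level with RANKL and 14.6-fold less with rmCst6. Cenpa, the histone H3 variant of centromeres, was at 9.65, 9.95 and 9.89 in control, at 9.37, 9.35 and 9.14 with RANKL and at 7.42, 7.01 and 7.22 with rmCst6. The remaining 8 of these 10 differed from RANKL by -3.37 (Atrnl1) to -2.01 (Maged1).

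Levels can be set beside each other only per length. Per kb of exon, on the linear scale, the RANKL level of the 75 genes ran from 11.5 for Ppp1r9a to 23020 for mt-Nd3, with a median of 151.3. It exceeded 1000 for 9 genes, of which Glul (3988), Clec7a (3443), Clec4n (2753), Ifi27 (2296), Ivns1abp (2255), Mt1 (2193), Emb (1675) and Prdm1 (1011) are nuclear genes. Bach2 (20.6) and Stab2 (20.8) stood near the lower end.

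mt-Nd3, a subunit of respiratory complex I, was the only selected gene of the mitochondrial genome, whose genes are transcribed as long joint precursors and then cut apart. It was at 12.06, 12.27 and 12.22 in control, at 12.64, 13.14 and 13.12 with RANKL and at 9.69, 9.51 and 9.74 with RANKL plus rmCst6. The 13 protein-coding genes of that genome were looked at together after the values were known, so they are described only. All 13 had a lower mean with rmCst6 than in the other groups, but to unequal extent: the difference from RANKL ran from -3.32 for mt-Nd3 to -0.04 for mt-Co1, and that from control from -2.54 to -0.09. mt-Cytb, of complex III, was next after mt-Nd3, at -2.62 and -1.63, and mt-Nd1 differed by -2.09 and -1.01. mt-Co1, a core subunit of complex IV, was at 18.34, 18.31 and 18.38 in control, at 18.11, 18.41 and 18.38 with RANKL and at 18.26, 18.21 and 18.29 with rmCst6, with overlap between the groups. RANKL replicate 1 was lower than the other RANKL libraries for each of the 13 genes. For mt-Nd3 the rmCst6 libraries lay 2.32 below the lowest control library and still further below RANKL replicate 1.

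**Figure D4:**
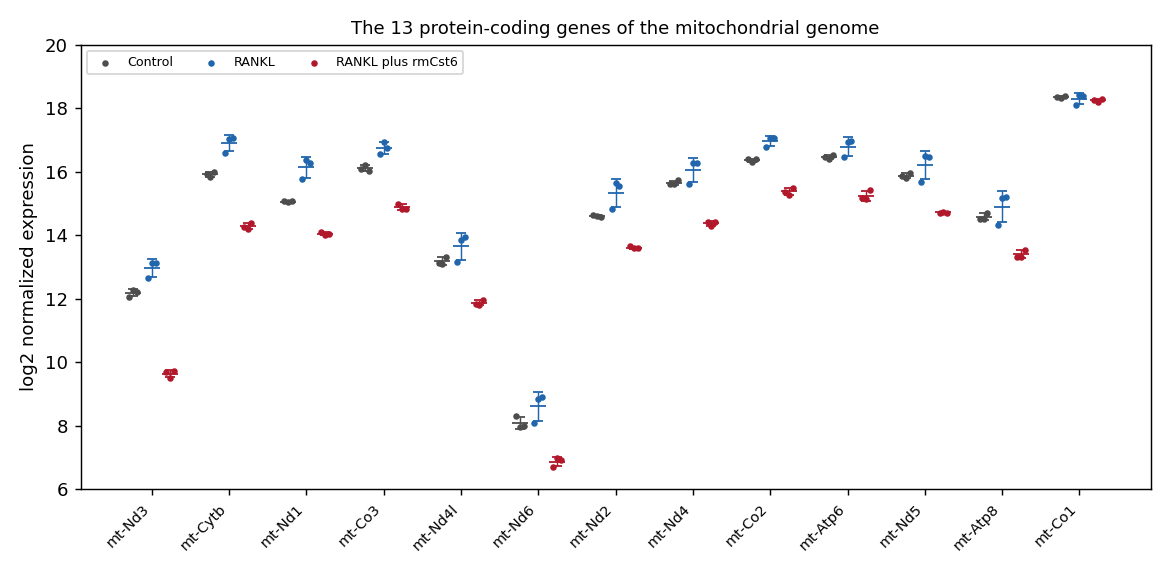
Log2 normalized expression (vertical axis) of the 13 protein-coding genes of the mitochondrial genome, ordered by RANKL plus rmCst6 minus RANKL; points are single libraries and bars the mean and SD of 3 libraries for control (gray), RANKL (blue) and RANKL plus rmCst6 (red). The red points are farthest below the others for mt-Nd3 (-3.32 from RANKL) and level with them for mt-Co1 (-0.04).

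Close relatives of the selected genes often had other values, and they too were picked after the values were known and are given with no test. In the cluster of C-type lectin genes, Clec4n and Clec7a were low with rmCst6, whereas Clec4a1, Clec4d, Clec4e, Clec4a3, Clec12a and Clec2d had higher means with rmCst6 than with RANKL, by 1.98, 1.84, 1.28, 1.11, 1.03 and 0.59, and also higher means than in control. Clec4e encodes Mincle, which shares the Fc receptor γ chain with Dectin-2 for signaling. Clec4a2 alone among these 7 relatives was lower, by -0.96 from RANKL. Of the eIF2α kinases, Eif2ak3 differed from RANKL by -2.18, the antiviral kinase PKR (Eif2ak2) by 1.99, the heme-regulated kinase (Eif2ak1) by 0.00 and the amino acid sensor GCN2 (Eif2ak4) by -0.23. Of the proteins of the mTOR complexes, Deptor differed by -3.85, against -0.33 for Mtor, -0.04 for Rptor, -0.29 for Akt1s1, 0.63 for Mlst8 and 1.02 for Rictor.

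In the R-Ras family, Rras was at 9.65, 9.71 and 9.68 in control, at 9.28, 9.34 and 9.21 with RANKL and at 10.07, 10.11 and 10.11 with rmCst6, the opposite order to Mras and Rras2. Stab1, the relative of Stab2, had a mean of 17.07 in control, 14.12 with RANKL and 14.64 with rmCst6. Sulf1, the relative of Sulf2, was scarcely expressed, with means of 5.17, 3.45 and 4.73 in control, RANKL and rmCst6. Mt3, another metallothionein, was listed at 0 in all control libraries, at 10.28, 9.50 and 9.73 with RANKL and at 1.59, 1.5 and 1.63 with rmCst6, so it was not near its control level with RANKL as Mt1 and Mt2 were. Among partners of Maff and Bach2, Mafk differed from RANKL by 1.15, Mafg by 0.20, Bach1 by 0.09 and Nfe2l2, which encodes Nrf2, by -0.20.

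Dbp is an output of the circadian clock, and other clock genes were set beside it. Nr1d1, Per3, Nr1d2 and Tef differed from RANKL by -1.63, -1.18, -1.0 and -0.96, all smaller than the -2.44 of Dbp, while Arntl and Per1 differed by 0.53 and 0.44. Against control, all 11 clock genes had a lower mean with rmCst6, from -3.23 for Dbp to -0.23 for Cry1. With RANKL alone they also lay below control, except Clock (0.22) and Cry1 (0.07). RANKL minus control was -1.79 for Per3, -1.14 for Per2, -1.13 for Tef, -1.01 for Per1, -0.99 for Arntl and -0.79 for Dbp. Per2 differed by only 0.02 between rmCst6 and RANKL. The hour at which the cells were collected is not stated in the sources used here.

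**Figure D5:**
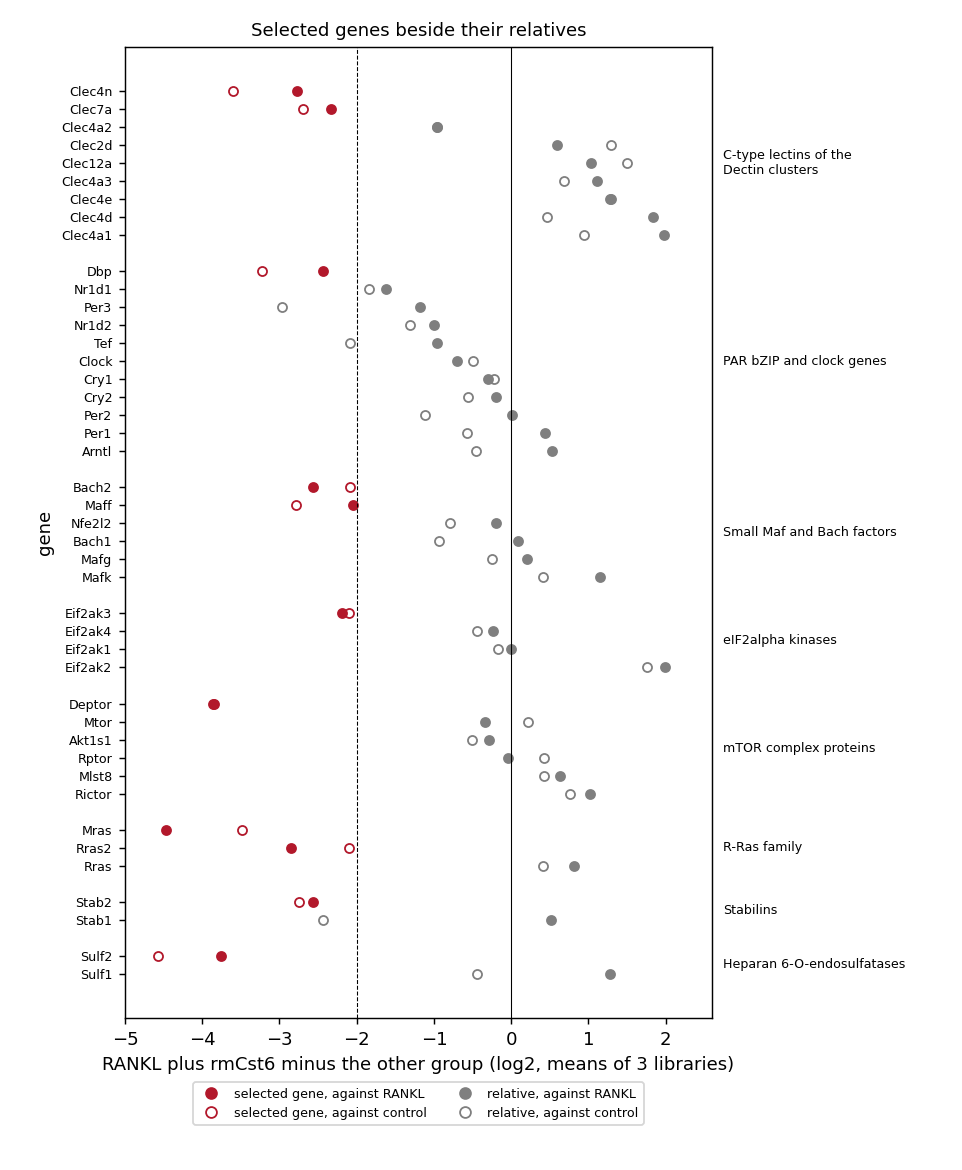
RANKL plus rmCst6 minus RANKL (filled) and minus control (open), as log2 differences of means of 3 libraries, for selected genes (red) and their relatives (gray) in 8 families; the dashed line marks the limit of -2. Red points lie left of the line by the rule, and gray points lie mostly between -2 and 2, with Eif2ak2 at 1.99 and Clec4a1 at 1.98 from RANKL.

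The selected genes were spread over 20 chromosomes, the mitochondrial genome included. Chromosome 19 held 11 of them (14.7%), against 3.58% of all genes tested: Atrnl1, Ctsf, Frat1, Frat2, Klf9, Ltbp3, Macrod1, Marveld1, Pdcd4, Tmem132a and Vegfb. Apart from Mt1 with Mt2 and Frat1 with Frat2, only Anks6 and Galnt12, on chromosome 4 and 34482 bases apart, had no other gene of the table between them. In GENCODE M21 on GRCm38, Prdm1 lies at chr10:44437177-44528501 on the minus strand, Ephx1 at chr1:180976210-181020904 on the minus strand, Emb at chr13:117208536-117274415 on the plus strand and Deptor at chr15:55112317-55259271 on the plus strand. The median span of the selected genes was 39050 bases, against 23440 for all genes tested that matched the annotation. Exons of 9 selected genes overlap exons of another gene of the table, on the same strand for Pde2a and on the opposite strand for Sulf2, Ltbp3, Crim1, Amz1, Cbx7, Abhd14a, Dbp and Tmem132a. Values of these genes, and of near copies such as Mt1 with Mt2, Frat1 with Frat2 and Gsta3 with its relatives, are uncertain to the extent that reads were shared.

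The promoters of the selected genes were like those of all genes tested in composition. RefSeq windows of 300 bases, from 250 before to 50 after the start, were matched by symbol for 64 of the 75 genes and for 10278 genes tested. The median GC content was 62.0% for the selected genes and 60.3% for all genes tested, and the ratio of observed to expected CpG was 0.741 and 0.753. Of 16 motifs searched on both strands, TGANTCA (AP-1) was found for 5 selected genes (7.81%) against 5.45% of all genes tested, CACGTG (E-box of MITF and USF) for 7 (10.9%) against 10.0%, and GGGCGG (GC box) for 43 (67.2%) against 62.4%. TGACNNNGC, the core of the antioxidant response element, was found for 10 (15.6%) against 14.9%, with Gsta3 and Maff among the 10 and neither Nqo1 nor Ephx1. The core GAAANNGAA (ISRE) was found for 2, Glul and Cytip (3.13%), against 7.67%. Many genes share these windows' features, and the motif shares of 64 genes rest on few genes.

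Of the 29 pathway lists, 13 held any of the 75 genes. The share of all genes tested that stood on these lists is not given here, so this count is not read as few or many. Glutathione and antioxidant defense held Gsta3 and Nqo1. The sum of this list on the linear scale, with these 2 counted in, was highest with rmCst6. It was 1.257e+06 to 1.385e+06 there, 6.27e+05 to 6.39e+05 with RANKL and 7.68e+05 to 8.94e+05 in control. Genes with the highest levels weigh most in such a sum. Of the 46 other genes of that list that were tested, 23 were called lower, 11 higher and 12 neither with rmCst6 against RANKL (limma), with a median difference of -0.23, against shares of 38.0% lower and 34.8% higher over all genes. Against control, 23 of these 46 were lower and 16 higher, with a median of -0.25. The 4 of them with the smallest adjusted p were Gstp1, Gsto1, Keap1 and Sod1. Gstp1, a glutathione S-transferase of the pi class, differed by -2.84 ± 0.08 (SE, adjusted p = 4.66e-12 by limma) and missed the selection narrowly, since it lay -1.98 from control. Gsto1, of the omega class, differed by -1.56 ± 0.04 (adjusted p = 7.40e-12 by limma), and Sod1, cytosolic superoxide dismutase, by -1.18 ± 0.05 (adjusted p = 1.24e-10 by limma). Keap1, which marks Nrf2 for degradation, rose by 1.43 ± 0.05 (adjusted p = 9.75e-11 by limma).

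Beside single selected genes, the other genes of a list moved in both directions against control, and often not the same way against RANKL as against control (limma calls with rmCst6). Over all genes tested, 38.0% were called lower and 34.8% higher than with RANKL. Against control, 35.1% were lower and 36.7% higher with rmCst6, and 35.9% lower and 36.6% higher with RANKL. For mitosis, which holds Cenpa, 30 of the 41 other genes were called lower than with RANKL and 11 were not called, with a median of -0.99, but against control 8 were lower and 13 higher. For macrophage transcription factors (Bach2), 15 of 52 were lower and 28 higher than with RANKL, whereas 30 were lower and 14 higher than in control. For cAMP and G protein signaling (Pde2a), 19 of 54 were lower and 27 higher than with RANKL, and 28 were lower and 12 higher than in control. For matrix and matrix proteases (Hspg2), 23 of 71 were lower and 26 higher than with RANKL, and 35 were lower and 18 higher than in control. For TGF-β and BMP signaling (Ltbp3), 14 of 37 were lower and 16 higher than with RANKL, and 22 were lower and 10 higher than in control. For actin and adhesion linkers (Tns1), 37 of 77 were lower and 28 higher than with RANKL, and 25 were lower and 35 higher than in control. For chromatin and DNA methylation enzymes (Cbx7), 29 of 70 were lower and 29 higher than with RANKL, and 35 were lower and 23 higher than in control. In the other 5 lists with a single selected gene, lower calls were the more frequent in both comparisons. For Notch and Wnt signaling (Tle1), 19 of 34 were lower and 11 higher than with RANKL, and 26 were lower and 4 higher than in control. For the FoxO and quiescence program (Klf9), 15 of 28 were lower and 9 higher than with RANKL, and 20 were lower and 4 higher than in control. For fatty acid and lipid synthesis (Lpin1), 25 of 54 were lower and 15 higher than with RANKL, and 27 were lower and 14 higher than in control. For eicosanoid enzymes (Ephx1), 15 of 35 were lower and 11 higher than with RANKL, and 18 were lower and 9 higher than in control. For kinesins and other motors (Kif13a), 20 of 35 were lower and 11 higher than with RANKL, and 13 were lower and 6 higher than in control. RANKL without rmCst6 also moved these lists from control, here with the selected gene counted in. Lower and higher calls numbered 38 against 6 (Bach2), 36 against 12 (Pde2a), 47 against 16 (Hspg2) and 27 against 7 (Ltbp3). They numbered 30 against 18 (Cbx7), 21 against 8 (Tle1), 22 against 3 (Klf9) and 22 against 21 (Lpin1). Higher calls were the more frequent beside Cenpa (36 against 1), Tns1 (35 against 30), Ephx1 (16 against 15) and Kif13a (13 against 11).

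The limits of the rule ran through a continuum of values. Just inside the expression limit were Cpne8, with a RANKL mean of 7.23, and Rras2, with 7.26, and just outside were Lrfn4 (6.52) and Rasgef1a (6.49). Mras (0.98) and Tmem132a (-0.97) were just inside the limit on RANKL minus control, and Fzd1 (-1.03) and Crip1 (1.04) just outside. Cytip (-2.01) and Maged1 (-2.01) just passed the fall from RANKL, while Pank1 (-1.99) and Trp53inp1 (-1.96) did not. Eepd1 (-2.01) and Marveld1 (-2.01) just passed the fall from control, while Pccb (-1.99) and Gstp1 (-1.98) did not. The genes outside are much like those inside, so the count of 75 follows from where the limits were set.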

How the data were processed

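Bulk RNA-Seq of 9 libraries of mouse BM macrophages (3 control, 3 RANKL, 3 RANKL plus rmCst6) was used, with groups and replicate numbers from the sample labels. The authors deposited a table of 13526 genes, in log2 normalized expression, from stranded mRNA libraries read at 2 × 100 bases. The submitters' processing notes name Salmon 1.2.1, DESeq2 and GRCm38.p6, without saying what each did, and the authors' gene filter and the value added before the log are not given in the sources used here. Values were already normalized, so sums per library (2.77e+07 to 3.14e+07) are not read totals. Whole reads were not recovered, since no more than 54.5% of low values (under 12) came within 0.02 of whole multiples of any step, so no count model and no counting interval was used, and the spread of 3 replicates gives the precision.

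Genes at log2(10) or more in at least 3 libraries were kept (12932 of 13526; 594 were dropped). The model of limma 3.58.1 (R 4.3.3), with the mean-variance trend, was fitted to the group means of all 9 libraries, with Benjamini-Hochberg adjustment over the genes kept and calls at an adjusted p under 0.05. The study's statistics give a general default test for comparisons and name none for the RNA-Seq in particular, and limma was used because the values are on a log2 scale. The rule that chose the 75 genes, the gene lists and the motifs were all set with earlier results of these data known, and the roles, the families and 3 of the 16 motifs were chosen after the values were seen. The genes named by rule were the 12 with the largest smaller fall, the 10 with the highest RANKL mean, those on a pathway list, those next to a limit and, for lists with 2 or more selected genes, up to 4 other genes with the smallest adjusted p; other genes were named by role after their values were seen. Positions are from GENCODE M21 (GRCm38) and promoter sequences from RefSeq (GRCm38.p6). Alternatives covered the filter, the scaling, an added 8, the limma settings, the replicate block, the limits of the rule and leaving out each library.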

Additional observations from a re-analysis of the deposited data

How the results depend on the processing

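The number of selected genes followed the limits of the rule: 42 with RANKL within 0.5 log2 units of control, 14 with both falls at least 3, 147 with both at least 1.5, 89 with a RANKL mean of at least 6 and 55 with at least 8, against 75. Other scalings kept most of the genes, with 63 of 75 kept when 8 was added on the linear scale (64 selected), 70 kept under quantile normalization (74), 72 under median centring (78) and 69 with group medians (71). Leaving out each library gave 72 to 77 genes, and 61 genes were selected in all 9 such settings; Mras, Bach2, Hspg2, Cytip and Maged1 were among those lost in at least 1. Of 74 differences of the 37 named genes, none changed sign; 11 moved by more than 1 SD with 8 added, 4 under quantile normalization and 2 under median centring, which also shifted the median of all genes for RANKL minus control from -0.01 to -0.12, so the sign of RANKL minus control is unsure for genes near 0.

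Without each library in turn, the genes called numbered 8948 to 9382 for rmCst6 against RANKL, 8827 to 9385 for rmCst6 against control and 8909 to 9394 for RANKL against control, beside 9407, 9278 and 9373. The balance of calls turned with the scaling: against RANKL, 4499 were higher and 4908 lower, but 4775 and 4752 under quantile normalization and 4721 and 4702 under median centring. Against control, 4740 were higher and 4538 lower, but 4477 and 4741 under quantile normalization and 4288 and 4996 under median centring. For RANKL against control, 4729 were higher and 4644 lower, but 4356 and 5172 under quantile normalization and 4125 and 5433 under median centring. Gstp1, Gsto1, Keap1 and Sod1 stayed past the threshold in all 18 alternatives, with adjusted p-values from limma of at most 3.74e-07. Deviations from the group means correlated at -0.08 to 0.07 for libraries of the same number and at -0.08 to 0.08 for libraries of different numbers. The same-number pairs that held a RANKL library were all slightly positive, at 0.0153 to 0.0706. Those of control with rmCst6 ran from -0.0776 to 0.0103. The values are small, and 3 libraries per group neither show nor exclude a pairing by number. A fit with the replicate block gave 9358, 9267 and 9354 calls. With 3 libraries per group and no read counts, small differences and low values are the least certain.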
